A study of Mus musculus with 25 samples.

Results

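The interferon regulatory factors (IRFs) are a family of transcription factors, and the transcripts of 8 members, Irf1, Irf2, Irf3, Irf4, Irf5, Irf7, Irf8 and Irf9, were followed through 2 expression tables of mouse myeloid cells. The members were taken by gene symbol, and all 8 were found among the 38087 genes of each table. The muscle table covers cells sorted from the tibialis anterior of male C57BL/6J mice, labelled as 2-4 months old, after an injection of cardiotoxin, a snake venom toxin that destroys muscle fibres. Its groups are Ly6Ghigh Ly6Cint F4/80- neutrophils at day 1 (3 samples), Ly6Clow F4/80high macrophages at day 4 (2 samples) and day 2 (3 samples), and Ly6Chigh F4/80low macrophages at day 4 (2 samples) and day 2 (3 samples). The second table covers bone marrow-derived macrophages (BMDM), 3 libraries exposed to 10 nM resolvin D2 (RvD2, a lipid mediator of the resolution of inflammation) for 4 h and 3 untreated libraries. These cells were grown for 7 days with macrophage colony-stimulating factor (M-CSF) from the marrow of male C57BL/6J mice of 8-10 weeks, and the protocol gives RvD2 24 h after replating without M-CSF. The age label of the BMDM samples is 2-4 months. No group was uninjured muscle, and every muscle group had been drawn from CD45+ cells of digested tissue. Ly6Chigh macrophages of day 1 and blood monocytes, 6 samples, were not analysed here.

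Every IRF binds DNA through an N-terminal domain that recognises GAAA repeats, the core of the interferon-stimulated response element (ISRE). IRF3, IRF5 and IRF7 lie in the cytoplasm until sensors of nucleic acids or of microbial products have them phosphorylated, and they then switch on type I interferon and inflammatory cytokine genes. Secreted interferon acts back on cells through STAT proteins, and IRF9 is the DNA-binding subunit of the complex called ISGF3. IRF1 is an interferon-induced activator and IRF2 competes with it for the same sites, while IRF4 and IRF8 are blood cell factors that bind together with PU.1 or BATF partners and direct myeloid and lymphoid differentiation.

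Values in both tables are log2 normalised read counts per gene. Each muscle group has a single column, which was read from steps in its low values as a mean of log2 values over the samples. The column labels do not say so. Muscle values carry no error, no n and no test. A muscle gene is said to be called where it differed at least 2-fold on log2(normalised count + 10) with the higher group at 50 or more. That offset shrinks the ratios of low genes. Genes of the sort antigens fitted the labels. Ly6g was at a log2 level of 7.20 in neutrophils and listed at 0 in the 4 macrophage groups. Emr1, which encodes F4/80, lay at 13.08 to 14.26 in macrophages and 11.07 in neutrophils. Ly6c2 was at 13.52 and 11.86 in Ly6Chigh cells at day 4 and day 2 and at 6.55 and 7.12 in Ly6Clow cells. The Ly6Chigh column of day 4 also held the fibroblast gene Col1a1 at 12.85. Summed normalised counts were 26.0 M (mega) in the neutrophil column and 11.9 to 12.8 M in the macrophage columns. Estimated gene reads per BMDM library were 9.13, 9.78 and 11.9 M with RvD2 and 10.2, 14.3 and 9.05 M without. Emr1 averaged 13.08 in RvD2 BMDM and 12.96 in untreated BMDM, and the fibroblast marker list, which begins with Col1a1, summed to 34181 to 54296 normalised counts with RvD2 and 38591 to 45127 in untreated libraries. Macrophage markers summed to 43708 to 51136 with RvD2 and 40917 to 51118 untreated. The part of other cells in the BMDM levels of the IRFs was not tested.

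The genes lie apart in the mouse genome (GRCm38/mm10, GENCODE M21). Irf1 is at chr11:53770014-53778374, Irf2 at chr8:46739732-46847458, Irf3 at chr7:44997648-45002848, Irf4 at chr13:30749226-30766976, Irf5 at chr6:29526625-29541871, Irf8 at chr8:120736358-120756694 and Irf9 at chr14:55603571-55610030, all on the plus strand, and Irf7 is at chr7:141262706-141266481 on the minus strand. Exons of 5 members overlap those of another gene in the tables, by 411 bases with Tnpo3 for Irf5, 135 with Gm17334 for Irf1, 123 with Rnf31 for Irf9, 88 with Bcl2l12 for Irf3 and 45 with Phrf1 for Irf7. The library kit as described marks no strand, so reads in these stretches cannot be assigned to 1 of the 2 genes. The 250 bases before each annotated start were searched on both strands for the ISRE core (GAAA, any 2 bases, GAAA), the STAT site TTCNNNGAA (GAS), the Ets-IRF composite (GGAA, any 2 bases, GAAA) that PU.1 and IRF4 or IRF8 can share, and the cAMP response element TGACGTCA. Of 32817 RefSeq mouse promoters of the same length, 2.97% held the ISRE core, 7.01% the GAS, 2.3% the composite and 1.55% the cAMP element.

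Among the 11 promoters of the 8 members, the Irf2 promoter held the ISRE core, an overlapping composite and a GAS, and the first Irf1 and first Irf8 promoters held 1 and 2 GAS matches. No window of Irf3, Irf4, Irf5, Irf7 or Irf9 held any of the 4 motifs as spelled. The 3 windows shown are those with matches. Irf2 was the member that passed the test in RvD2-treated BMDM, and Irf1 and Irf8 were called higher at day 4 in muscle. Irf2 was not called between days or subsets in muscle, and Irf1 and Irf8 did not pass the test in BMDM. Irf4 and Irf7 were also called higher at day 4 and had no match. Sequences are from RefSeq on GRCm38.p6, plus strand, 5′ to 3′, with motif matches in capitals, and they cover chr11:53769764-53770013 for Irf1, chr8:46739495-46739744 for Irf2 and chr8:120736108-120736357 for Irf8.
Irf1: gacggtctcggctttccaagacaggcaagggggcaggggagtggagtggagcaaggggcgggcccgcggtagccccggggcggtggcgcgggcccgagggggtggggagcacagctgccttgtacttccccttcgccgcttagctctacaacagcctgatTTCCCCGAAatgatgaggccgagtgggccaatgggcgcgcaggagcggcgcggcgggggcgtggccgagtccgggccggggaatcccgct
Irf2: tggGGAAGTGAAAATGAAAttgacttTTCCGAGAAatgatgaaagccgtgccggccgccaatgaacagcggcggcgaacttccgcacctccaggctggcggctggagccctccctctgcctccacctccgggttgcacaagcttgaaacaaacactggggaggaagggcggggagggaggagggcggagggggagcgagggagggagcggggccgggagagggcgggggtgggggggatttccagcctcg
Irf8: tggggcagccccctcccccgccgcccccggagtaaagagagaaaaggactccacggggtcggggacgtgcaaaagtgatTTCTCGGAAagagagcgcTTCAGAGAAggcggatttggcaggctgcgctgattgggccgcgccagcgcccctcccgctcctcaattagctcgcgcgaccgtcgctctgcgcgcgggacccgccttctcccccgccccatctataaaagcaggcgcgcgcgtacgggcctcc
The GAS match of Irf1, TTCCCCGAA, starts 90 bases before the annotated start. In the Irf2 promoter the composite GGAAGTGAAA (247 bases before the start) runs into the ISRE core GAAAATGAAA (241 bases), and the GAS TTCCGAGAA follows at 224 bases. The Irf8 matches TTCTCGGAA and TTCAGAGAA begin 171 and 153 bases before the start. Each match is a description of letters in these windows, and binding was not measured.

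Levels of different members were set side by side as normalised counts per kb of exon. Irf5, which acts below MyD88-dependent Toll-like receptors, and Irf7, the interferon-induced amplifier of type I interferon, took the first rank between them in every muscle group. Irf7 was first at day 4, at 2453 per kb in Ly6Clow and 3712 per kb in Ly6Chigh macrophages. Irf5 was first in neutrophils (1609 per kb), in Ly6Clow cells at day 2 (1096) and in Ly6Chigh cells at day 2 (1457). Irf4 had the lowest level per kb in all 5 groups, from 2.50 in neutrophils to 78.8 in Ly6Chigh cells at day 4. Irf8 was 7.62 per kb in neutrophils, its 7th rank, and 301 to 742 per kb in macrophages, where it ranked 2nd or 3rd.

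In BMDM, Irf5 again led, at 854 ± 45.8 per kb with RvD2 and 989 ± 98.6 untreated (SD, n = 3 each). Irf8 followed, with libraries at 216 to 259 per kb with RvD2 and 200.2 to 237 untreated, then Irf3 at 187 ± 5.54 with RvD2 and 179.9 ± 1.85 untreated, and then Irf1 at 119 ± 9.56 with RvD2 and 113 ± 16.0 untreated. The libraries of these neighbours did not overlap within either group. Below Irf1 the order was not resolved: libraries of Irf9 and Irf2 overlapped with RvD2, libraries of Irf1 and Irf9 overlapped in untreated cells, and Irf7 ranged from 64.8 to 105 per kb with RvD2 and from 38.1 to 135 per kb without, across the levels of Irf2 and Irf9. Irf4 was at 1.93 ± 1.03 per kb with RvD2 and 1.51 ± 0.447 per kb in untreated cells. The muscle and BMDM tables were normalised separately, so no test was made between them; as deposited, Irf7 was 310 per kb or more in every muscle group and 135 per kb or less in every BMDM library.

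**Figure D1:**
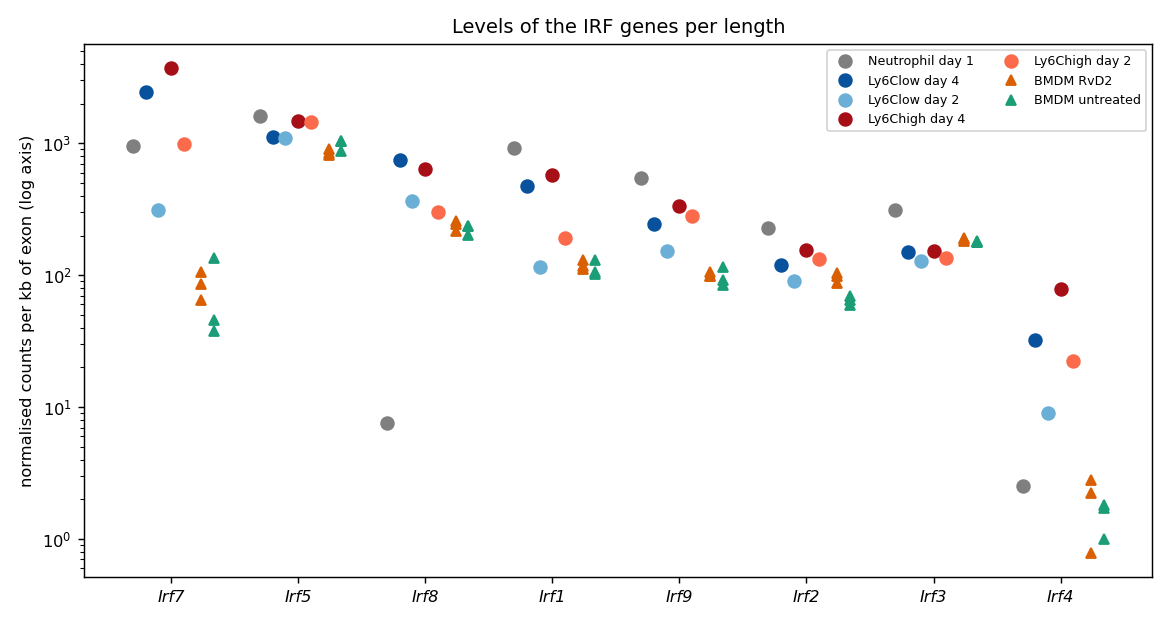
Normalised counts per kb of exon on a log axis for the 8 IRF genes, with 1 circle per muscle group (read as a group mean) and 1 triangle per BMDM library. Irf7 reached 3712 per kb in Ly6Chigh macrophages at day 4, Irf8 was at 7.62 per kb in neutrophils, and Irf4 was the lowest member in each muscle group.

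Day 4 macrophages were compared with day 2 macrophages of the same gate, which asks how the family differs between an early and a later stage of repair. Irf1, Irf4, Irf7 and Irf8 were called higher at day 4 in both subsets, and Irf2, Irf3, Irf5 and Irf9 were not called in either. That is 4 of 8 members in each subset, where 8.08% of all genes at the level limit were called higher in Ly6Clow cells and 9.67% in Ly6Chigh cells. No member (0 of 8) was called lower, against 3.24% of all genes in Ly6Clow cells and 3.74% in Ly6Chigh cells. The members' median log2 ratio was 0.85 in Ly6Clow cells and 0.67 in Ly6Chigh cells, against -0.01 and -0.02 over all genes. Since the columns hold bulk RNA, more cells of a type and more RNA per cell cannot be told apart.

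Irf7 had the largest ratios of the family. Its log2 level was 13.18 at day 4 and 10.19 at day 2 in Ly6Clow cells, and 13.77 at day 4 and 11.86 at day 2 in Ly6Chigh cells. Day 4 cells were thus higher in both gates, 7.87-fold in Ly6Clow macrophages (log2 ratio 2.98) and 3.76-fold in Ly6Chigh macrophages (1.91). Irf3, the factor that starts type I interferon transcription and needs no induction of its own, was at 9.02 and 8.79 in Ly6Clow cells and 9.04 and 8.86 in Ly6Chigh cells at day 4 and day 2, with ratios of 0.22 and 0.17. Irf5 was at 11.66 and 11.64 in Ly6Clow cells and 12.06 and 12.05 in Ly6Chigh cells, and the sign of its ratios (0.03 and 0.02) turned negative when the columns were scaled by median ratios (-0.03 and -0.09). Of these 3 members, which start cytokine transcription, Irf7 was the 1 called between days.

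Irf1, the activator induced by interferon gamma, was at 10.87 at day 4 and 8.84 at day 2 in Ly6Clow cells, which is 4.04-fold higher (log2 ratio 2.02). In Ly6Chigh cells its levels were 11.17 at day 4 and 9.57 at day 2 (log2 ratio 1.59). Its competitor Irf2 differed far less, with levels of 9.78 and 9.38 in Ly6Clow cells (0.40) and 10.17 and 9.93 in Ly6Chigh cells (0.23). Irf9, the DNA-binding subunit of ISGF3, was at 10.36 and 9.68 in Ly6Clow cells, a ratio of 0.67, and at 10.81 and 10.56 in Ly6Chigh cells, a ratio of 0.24.

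Of the blood cell factors, Irf4, which is needed for part of alternative macrophage activation in mice, was at 7.32 at day 4 and 5.46 at day 2 in Ly6Clow cells (3.14-fold higher, log2 ratio 1.65). In Ly6Chigh cells it was at 8.59 at day 4 and 6.78 at day 2 (1.72). Irf8, required for the development of monocytes and several dendritic cells, was at 12.35 and 11.32 in Ly6Clow cells (1.03) and 12.14 and 11.05 in Ly6Chigh cells (1.09). Irf8 stood just past the 2-fold limit, and scaling by median ratios, which put the median gene at -0.12 in Ly6Chigh cells and -0.06 in Ly6Clow cells, left it at 0.99 and 0.98 and not called.

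**Figure D2:**
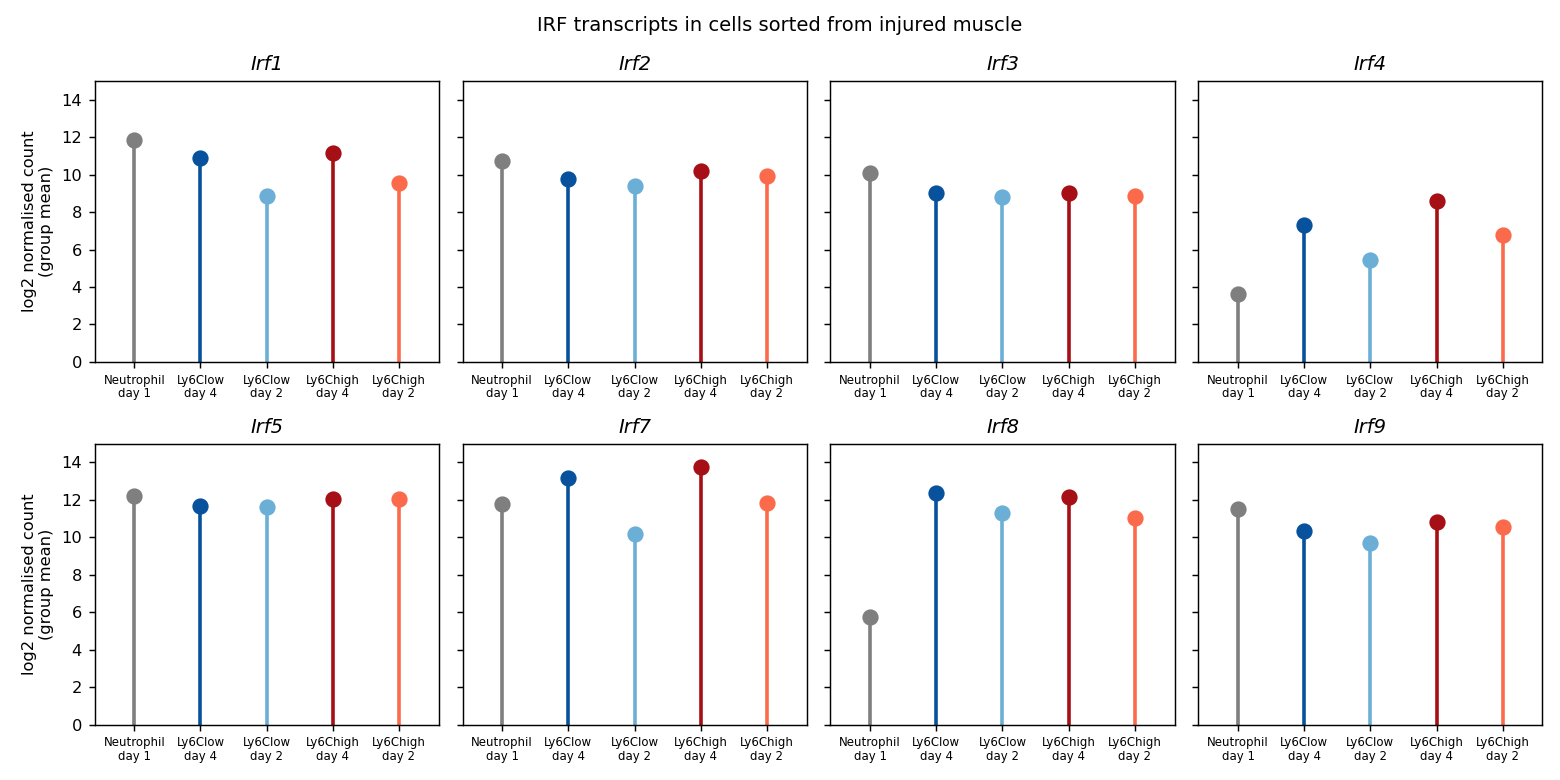
Log2 normalised counts of the 8 IRF genes in the 5 muscle columns, each read as a mean over 2 or 3 samples, with no error available. Irf1, Irf4, Irf7 and Irf8 stand higher at day 4 than at day 2 in both macrophage gates, and Irf8 is at 5.75 in neutrophils.

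The next question was how Ly6Clow macrophages, the later and repair-associated subset, differ from Ly6Chigh macrophages of the same day. All members but Irf8 were lower in Ly6Clow cells at both days, most by less than 2-fold. At day 2, 2 of 8 were called lower, Irf4 and Irf7, where 5.46% of all genes were, and at day 4, 1 of 8 was called lower, Irf4, where 4.22% of all genes were. No member (0 of 8) was called higher, against 5.9% of all genes at day 2 and 2.98% at day 4. The members' median log2 ratio was -0.64 at day 2 and -0.39 at day 4, with all genes at -0.00 and 0.01.

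Irf7 was 3.16-fold lower in Ly6Clow cells at day 2 (log2 levels 10.19 in Ly6Clow and 11.86 in Ly6Chigh cells, log2 ratio -1.66) and 1.51-fold lower at day 4 (13.18 and 13.77, log2 ratio -0.60). The subset ratio of Irf7 was thus 1.07 log2 units nearer to 0 at day 4, next to 0.43 units for Irf1 and for Irf9 and between -0.07 and 0.16 for the other 5 members, with a median of 0.01 over all genes. The ratio of Irf4 was -1.15 at day 2 (levels 5.46 and 6.78) and -1.22 at day 4 (7.32 and 8.59). At an offset of 50 normalised counts the day 2 ratio of Irf4 was -0.77 and under the limit.

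Irf1 was at 8.84 in Ly6Clow and 9.57 in Ly6Chigh cells at day 2 (log2 ratio -0.72), and at 10.87 and 11.17 at day 4 (-0.29). The ratio of Irf9 was -0.88 at day 2 and -0.44 at day 4. Irf2 (-0.55 and -0.39) and Irf5 (-0.41 and -0.40) had smaller ratios, and Irf3 was nearly level between the subsets (-0.07 and -0.03). Irf8 was the 1 member with a positive ratio, 0.27 at day 2 (11.32 in Ly6Clow and 11.05 in Ly6Chigh cells) and 0.21 at day 4 (12.35 and 12.14). No ratio in the 4 comparisons of macrophages has an error, and each macrophage column enters 2 of them.

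**Figure D3:**
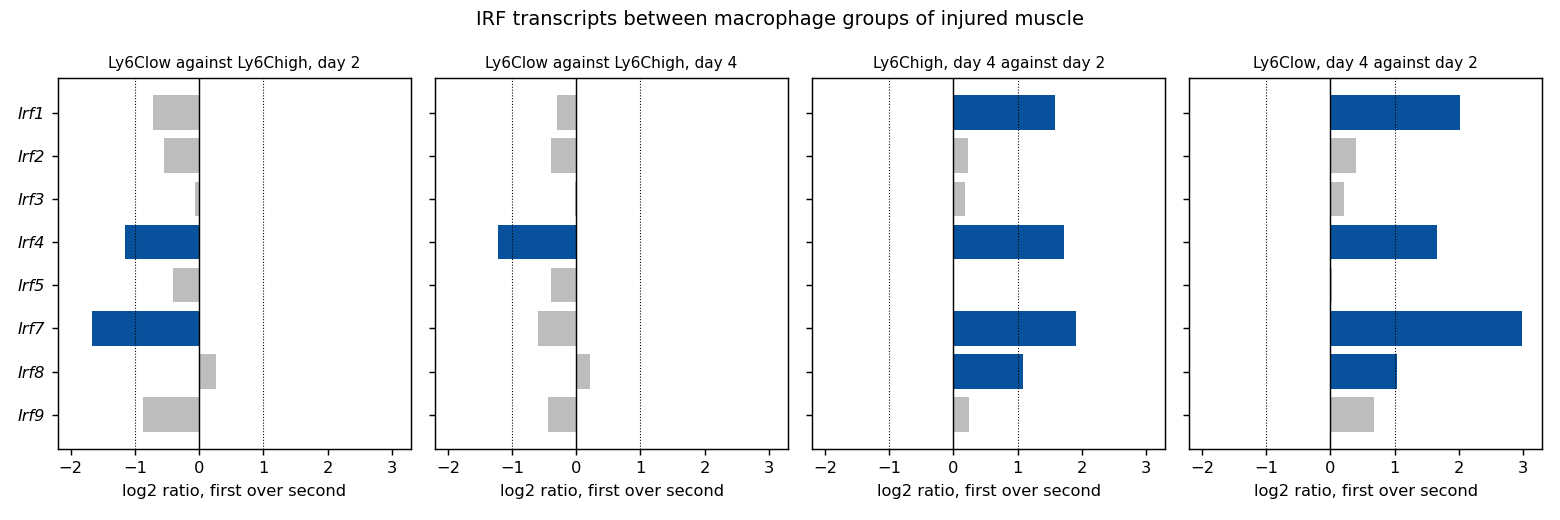
Log2 ratios of log2(normalised count + 10) for the 8 IRF genes in 4 comparisons of macrophage columns, first-named column over the second, with dotted lines at 2-fold and called genes in blue. Irf1, Irf4, Irf7 and Irf8 pass the limit between days in both subsets, and Irf4 (-1.15 and -1.22) and, at day 2, Irf7 (-1.66) pass it between subsets.

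Genes above the IRFs were counted from a list of 23 sensors and adaptors of IRF3, IRF5 and IRF7. For this and the next lists, 8.08% of all genes were called higher at day 4 in Ly6Clow cells and 9.67% in Ly6Chigh cells. Between subsets, 5.46% of all genes were called lower in Ly6Clow cells at day 2 and 4.22% at day 4. Between days, 7 of 23 were called higher in Ly6Clow cells and 4 of 23 in Ly6Chigh cells, and 0 lower in either. In Ly6Clow cells these included the endosomal DNA receptor Tlr9 (log2 ratio 2.59), the cytosolic RNA sensor Ddx58 (RIG-I, 1.85), the double-stranded RNA receptor Tlr3 (1.64) and Ifih1 (MDA5, 1.58). In Ly6Chigh cells they were Tlr3 (2.39), Ifih1 (1.21), Tlr9 (1.08) and Tmem173, which encodes STING (1.01). At day 2, 4 of 23 were called lower in Ly6Clow than in Ly6Chigh cells, Tlr9 (-2.04), Ddx58 (-1.35), Ifih1 (-1.06) and Traf3 (-1.01), and at day 4, 0 of 23 were called.

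The interferons themselves were near the floor of the measurement. Of 10 interferon genes found in the table, 0 reached 50 normalised counts in any muscle column, and their sum was at most 31.4, in Ly6Chigh cells at day 4. Ifng and Ifnb1 are named here after their values were seen. Ifng, made by T and NK cells, was at a log2 level of 4.87 in that column, at 0.08 in Ly6Chigh cells at day 2 and listed at 0 in the other 3. Ifnb1 was at 1.35 and 0.29 in Ly6Clow cells at day 4 and day 2 and at 1.18 and 1.79 in Ly6Chigh cells. Among 10 receptor and JAK-STAT genes, 3 were called higher at day 4 in Ly6Clow cells (median log2 ratio 0.52), with Ifngr1, a chain of the interferon gamma receptor, at 1.19, and 2 in Ly6Chigh cells (median 0.28), with 0 lower. Jak2 was the 1 gene of this list called lower in Ly6Clow than in Ly6Chigh cells, just past the limit on both days (-1.01 on day 4).

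Genes that ISGF3 activates were counted from a list of 22. In Ly6Clow cells 20 of 22 were called higher at day 4 (median log2 ratio 1.74), with Ifi44 at 4.58, Ifit2 at 3.49, Ifit3 at 2.65 and Oas2 at 2.49. In Ly6Chigh cells 6 of 22 were called higher (median 0.89), led by Ifi44 at 3.83 and Ifit2 at 2.31. At day 2, 15 of 21 at the limit were called lower in Ly6Clow than in Ly6Chigh cells (median -1.28), among them Isg20 at -2.33, Oas2 at -2.21, Zbp1 at -1.96 and Mx2 at -1.91. On day 4, 1 of 22 was, Isg20 at -1.27 (median -0.42).

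From the list of 18 IRF1 target genes, 11 of 16 at the limit were called higher at day 4 in Ly6Clow cells (median 1.39) and 8 of 16 in Ly6Chigh cells (median 0.99). Ciita, the master regulator of MHC class II, had log2 ratios of 5.54 in Ly6Clow and 2.63 in Ly6Chigh cells. In Ly6Clow cells Cxcl9 was at 4.42, Cxcl10 at 3.84 and the guanylate-binding protein gene Gbp2 at 3.48, and in Ly6Chigh cells Cxcl9 was at 4.47, Gbp2 at 2.33 and Cxcl10 at 1.80. Ly6Clow cells at day 2 had 7 of 15 called lower than Ly6Chigh cells (median -0.82), led by Ciita at -3.65 and Cxcl10 at -2.27, and at day 4 they had 0 of 16. None (0 of 3) of the IRF2 binding protein genes was called in any of these comparisons.

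Partners of IRF4 and IRF8 at the limit were called higher at day 4 in 2 of 7 cases in Ly6Clow cells, Batf3 (1.48) and Batf2 (1.38), and in 4 of 9 cases in Ly6Chigh cells, Spib (4.67), Ikzf3 (2.29), Batf3 (1.71) and Batf2 (1.37). Spib (-4.97) and Ikzf3 (-2.40) were also the 2 partners called lower in Ly6Clow than in Ly6Chigh cells at day 4. Of 10 genes linked to IRF8 in monocytes and macrophages, 4 were called higher at day 4 in Ly6Clow cells, the fractalkine receptor Cx3cr1 (2.08), Il18 (2.05), the NADPH oxidase subunit Cybb (1.76) and the M-CSF receptor Csf1r (1.30). In Ly6Chigh cells 3 were, Cybb (1.70), Cx3cr1 (1.57) and the protease gene Ctss (1.02). The alternative activation genes linked to IRF4 were divided between directions at day 4. Arg1 was called lower in both subsets (-4.09 in Ly6Clow and -4.20 in Ly6Chigh cells), as was Chi3l3 (-2.29 and -1.88), while Retnla was called higher in both (2.21 and 2.52).

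Markers of other cells that express IRFs were also compared between days, and those of plasmacytoid dendritic cells differed mainly in Ly6Chigh cells. Of these markers at the level limit, 5 of 7 were called higher at day 4 in Ly6Chigh cells and 0 of 3 in Ly6Clow cells. Classical dendritic cell markers were called higher in 5 of 5 cases in Ly6Chigh cells and 1 of 1 in Ly6Clow cells. These lists share genes with the partners of IRF4 and IRF8 given above. Batf3 was the classical marker called in Ly6Clow cells (1.48) and was among those called in Ly6Chigh cells. Spib was among the plasmacytoid markers called in Ly6Chigh cells. The 8 plasmacytoid dendritic cell markers, a type known for high Irf7 and Irf8, summed to 1356 and 846 normalised counts in Ly6Clow cells at day 4 and day 2 and to 3133 and 1160 in Ly6Chigh cells. Tcf4, at log2 levels of 10.19 and 9.45, was the highest of them in Ly6Clow cells, and it averaged 9.64 in untreated BMDM. Siglech, the defining marker, was at log2 levels of 4.03 and 0 in Ly6Clow cells and of 9.12 and 3.49 in Ly6Chigh cells, in the same order of days. At 0 were 1 of 8 of these markers in Ly6Clow cells at day 4, 3 at day 2 and 0 in the Ly6Chigh columns. Classical dendritic cell markers summed to 239 and 67.8 in Ly6Clow cells and to 1246 and 170.0 in Ly6Chigh cells, with 0 of 7 listed at 0. The 5 B cell markers, of a lineage that uses Irf4, summed to 169 and 80.4 in Ly6Clow cells at day 4 and day 2 and to 209.7 and 43.9 in Ly6Chigh cells, with 3, 4, 2 and 2 of them listed at 0 in these columns, Pax5 in all 4. Cd79b, the 1 of them at the level limit, was at log2 levels of 7.37 and 6.33 in Ly6Clow cells and of 7.66 and 5.34 in Ly6Chigh cells, where it was called higher at day 4 (log2 ratio 2.07). T and NK cell markers summed to 34.8 and 9.2 in Ly6Clow cells and to 803 and 31.8 in Ly6Chigh cells, and fibroblast markers to 1485 and 77.1 and to 21266 and 239. Irf7 alone was at 9264 and 1169 normalised counts in Ly6Clow cells and at 14015 and 3720 in Ly6Chigh cells, and the part of other cells in the IRF levels was not tested.

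Neutrophils of day 1 were then set against the macrophages of day 2 and day 4. Cell type and day after injury differ together in these comparisons and cannot be told apart. Irf8 was called lower in neutrophils against every macrophage column. It was at a log2 level of 5.75 in neutrophils, against 12.35 and 11.32 in Ly6Clow cells and 12.14 and 11.05 in Ly6Chigh cells at day 4 and day 2. That is 33.4-fold to 82.3-fold lower (log2 ratios -5.06 to -6.36), and scaling all columns to equal totals gave -5.96 to -7.24. Irf3 was called higher than all 4 macrophage columns (10.07 in neutrophils against 8.79 to 9.04, log2 ratios 1.01 to 1.25), but at equal totals its ratios were -0.11 to 0.23. These 2 are the members called in 1 direction against all 4 columns, 1 higher and 1 lower, where 25.2% of all genes were called higher in this way and 20.9% lower.

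The neutrophil column sums to more than the others, and scaling it to the same total moved the median gene from a log2 ratio of 0.20 to -0.81 and the share of called genes that were higher from 54.7% to 19.9%. Irf4 was lower in neutrophils under either scaling, at a level of 3.62 against 5.46 to 8.59 in macrophages, with ratios of -4.15 to -1.28 as deposited and -4.88 to -1.87 at equal totals. It was not called against all 4 columns as deposited, since its level in Ly6Clow cells of day 2 was 44.0 normalised counts, under the limit. It was called lower against all 4 columns at equal totals, and also as deposited with a level limit of 10. Irf1 was at 11.84 in neutrophils, above its levels of 8.84 to 11.17 in macrophages, but its ratios of 0.67 to 2.97 became -0.46 to 1.94 at equal totals, negative against both day 4 columns. Irf7 was at 11.80, lower than in both day 4 columns (-1.37 in the Ly6Clow and -1.97 in the Ly6Chigh comparison) and higher than in Ly6Clow cells at day 2 (1.61), with the same signs at equal totals (-2.40, -3.10 and 0.57). Against Ly6Chigh cells at day 2 the ratio of Irf7 was -0.06, and -1.11 at equal totals. The higher deposited levels of Irf2 (10.72), Irf5 (12.19) and Irf9 (11.53) gave ratios of 0.55 to 1.33, 0.13 to 0.55 and 0.72 to 1.84, which at equal totals were -0.58 to 0.30 for Irf2, negative in all 4 comparisons for Irf5 (-0.49 at the nearest to 0) and -0.41 to 0.80 for Irf9.

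Of the 10 genes linked to IRF8, 4 were called lower in neutrophils against all 4 columns and 3 higher. Over all genes, 20.9% were called lower in this way and 25.2% higher. The mean log2 ratio over the 4 comparisons was -4.68 for Cx3cr1 and -3.73 for Ctss, and it was 3.47 for Cd14 and 3.26 for Tlr4. Of the 6 macrophage markers, 3 were called lower in neutrophils against all 4 columns and 1 higher, with a median log2 ratio of -1.89. Mertk was at a log2 level of 3.69 in neutrophils against 9.76 to 11.90 in macrophages, Fcgr1 at 7.77 against 12.33 to 13.02 and Emr1 as given above. Csf1r, at 13.42 against 13.86 to 15.16, and Cd68, at 13.31 against 13.57 to 14.74, were not called against all 4, and Itgam, which neutrophils also express, was higher at 15.86 against 13.12 to 14.67. The sum of the 6 was 83053 normalised counts in neutrophils, with Itgam its highest member there, and between 76421 and 93160 in macrophages, with none (0 of 6) listed at 0, while the 8 neutrophil markers summed to 416703 in neutrophils and to at most 2831 in macrophages. Csf3r was the highest of these neutrophil markers in each macrophage column, at log2 levels of 10.36 to 11.40, against 16.28 in neutrophils. Ly6g, Ngp and Camp were listed at 0 in all 4 macrophage columns. The 4 neutrophil ratios share 1 neutrophil column.

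In BMDM the libraries are separate, so RvD2 could be tested. limma's moderated test on the log2 values was run over 15239 genes with a mean of at least 10 normalised counts, and a gene was called where its p, adjusted by Benjamini-Hochberg, was under 0.05. It called 1 of the 7 members tested, Irf2, which rose with RvD2, and 0 fell, where 0.794% of all genes rose and 1.06% fell. The median log2 difference was 0.08 over the members tested and -0.00 over all genes. Nothing in the labels says that the libraries are separate cultures, so p-values measure only the spread between these libraries, which may be technical.

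Irf2, the factor that competes with IRF1, was at log2 levels of 9.33, 9.58 and 9.51 in the RvD2 libraries and 8.79, 8.91 and 9.01 in the untreated libraries. All 3 RvD2 libraries lay above all 3 untreated libraries, and Irf2 was the 1 member of 7 whose groups did not overlap, where 21.0% of all genes had groups that did not. The mean was 9.47 ± 0.132 with RvD2 and 8.90 ± 0.107 without (SD, n = 3 each), and the log2 difference was 0.57 with a standard error of 0.0863, or 1.49-fold with a 95% interval of 1.30 to 1.70 (adjusted p = 0.0163, limma). Leaving out 1 library at a time gave log2 differences of 0.52 to 0.65. The call was kept without RvD2 library 1 (adjusted p = 0.0139, limma) and untreated library 3 (0.0336), and was lost without RvD2 library 2 (0.0684), RvD2 library 3 (0.0870), untreated library 1 (0.0590) and untreated library 2 (0.0723). It was also lost with no filter on low genes (adjusted p = 0.0511, limma) and without the mean-variance trend (0.0908). The IRF2 binding protein genes, 3 in number, had 0 called and a median log2 difference of 0.15.

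The other members did not pass the test. Irf5 was at 11.21, 11.36 and 11.25 with RvD2 and 11.31, 11.57 and 11.57 untreated, a log2 difference of -0.21 with a 95% interval of -0.39 to -0.03 (unadjusted p = 0.0291, adjusted p = 0.253, limma), and its groups overlapped. For Irf3 the levels were 9.37, 9.34 and 9.29 with RvD2 and 9.27, 9.29 and 9.26 untreated, which is a difference of 0.06 with an interval of -0.07 to 0.19 (adjusted p = 0.698, limma). These are the tightest libraries of the family, and a 1.14-fold increase is the upper end of the interval. Irf8 was at 10.57, 10.83 and 10.76 with RvD2 and 10.46, 10.71 and 10.70 untreated, and its difference of 0.10 had an interval of -0.10 to 0.30 (adjusted p = 0.675, limma).

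Irf1 was at 8.87, 8.78 and 9.01 with RvD2 and 8.72, 8.66 and 9.03 untreated (difference 0.08, interval -0.16 to 0.33, adjusted p = 0.784, limma). Irf9 was at 9.04, 9.06 and 9.16 with RvD2 and 8.82, 8.95 and 9.28 untreated (difference 0.07, interval -0.18 to 0.32, adjusted p = 0.833, limma). In both genes the third untreated library was the highest of all 6 and the groups overlapped. Irf4, at 10.9, 3.9 and 13.7 normalised counts with RvD2 and 4.9, 8.9 and 8.5 untreated, averaged 8.44, was under the filter and was not tested.

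**Figure D4:**
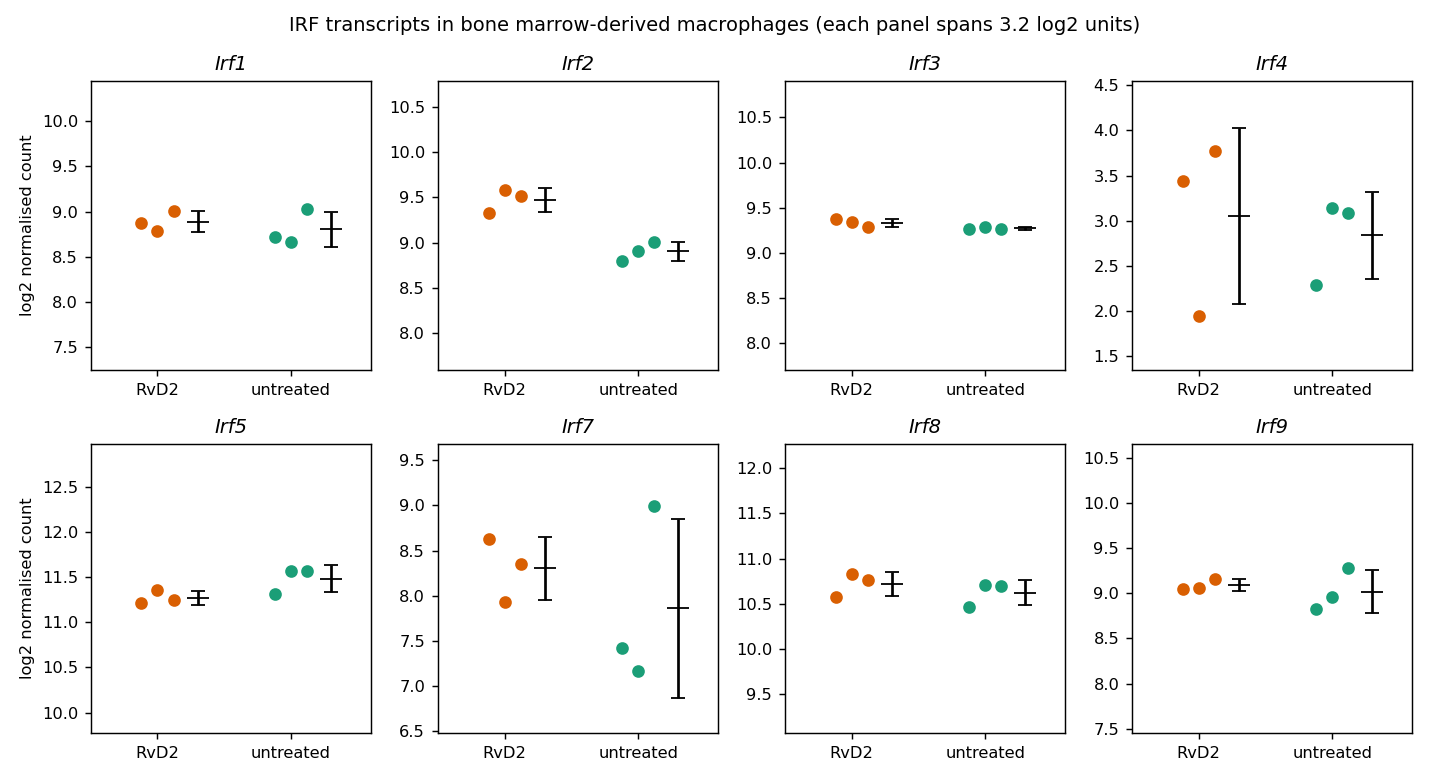
Log2 normalised counts of the 8 IRF genes in 3 RvD2 and 3 untreated BMDM libraries (points), with the mean and SD of each group (bars); each panel spans the same number of log2 units. The groups of Irf2 do not overlap, at 9.33 to 9.58 with RvD2 and 8.79 to 9.01 untreated, and the untreated libraries of Irf7 spread from 7.17 to 8.99.

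Irf7 had the widest spread between libraries among the 7 members tested. It was at 8.63, 7.94 and 8.35 with RvD2 and at 7.42, 7.17 and 8.99 untreated, so that untreated library 3 was above every RvD2 library and the other 2 untreated libraries were below them all. The difference of 0.44 had a standard error of 0.419 and an interval of -0.51 to 1.40 (adjusted p = 0.688, limma). Without untreated library 3 it was 1.01 (adjusted p = 0.0608, limma), without untreated library 2 it was 0.10 (0.961) and without untreated library 1 it was 0.23 (0.903); without each RvD2 library it was 0.28 to 0.63, and the adjusted p lay between 0.0608 and 0.961 over all alternatives run.

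Genes below Irf7 and Irf9 also varied by library. Of 22 ISGF3 target genes tested, 0 were called by limma, with a median log2 difference of 0.49, and 3 were called without untreated library 3 (median 0.85). Relative to each gene's mean over 6 libraries, their median was 0.42, -0.14 and 0.63 in the RvD2 libraries and -0.63, -0.62 and 0.33 in the untreated libraries. Neutrophil markers, 7 of 8 tested and 0 called, also varied by library, with medians of -0.36, -0.21 and 0.43 with RvD2 and -0.72, 0.04 and 1.03 untreated. Their sum was 3992, 5111 and 7800 normalised counts with RvD2 and 3754, 5891 and 12439 untreated, with none (0 of 8) at 0 in any library, and their part in the spread of Irf7 was not tested.

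**Figure D5:**
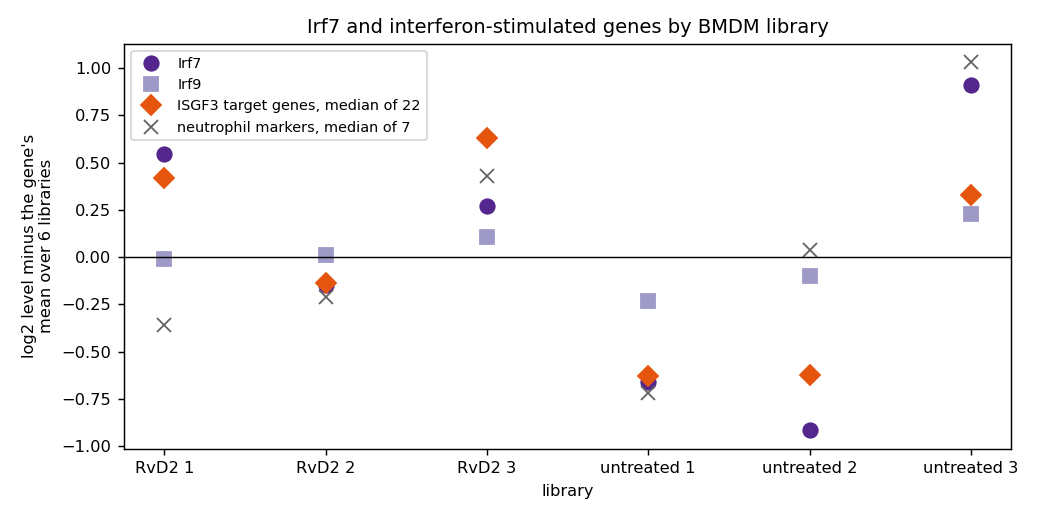
Log2 level minus the gene's mean over 6 BMDM libraries for Irf7 and Irf9, with the median of 22 ISGF3 target genes and of 7 neutrophil markers, by library. Untreated library 3 is high in all 4 measures (ISGF3 genes 0.33, neutrophil markers 1.03), and untreated library 1 is low in all 4. ISGF3 genes and neutrophil markers differ in sign in RvD2 library 1 (0.42 and -0.36) and untreated library 2 (-0.62 and 0.04). They share it in RvD2 libraries 2 and 3.

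Other genes of the IRF pathways were tested from the same lists. Among 23 sensors and adaptors, 1 was called, Ticam2 (TRAM, the adaptor that links Toll-like receptor 4 to IRF3), which rose by 1.06 on the log2 scale, with levels of 8.00, 7.99 and 7.94 in RvD2 libraries and 6.90, 6.70 and 7.15 in untreated libraries (adjusted p = 0.00639, limma). Its groups did not overlap, and it was called without each library in turn (adjusted p = 0.00938 to 0.0408, limma). Of 10 receptor and JAK-STAT genes 1 was called, the interferon gamma receptor chain gene Ifngr2, higher by 0.44 (10.87, 10.99 and 11.02 with RvD2, 10.34, 10.60 and 10.64 untreated, adjusted p = 0.0432, limma). Among the 10 genes linked to IRF8, 2 were called, both higher with RvD2. Cd14, the lipopolysaccharide co-receptor gene, differed by 1.11 (adjusted p = 0.0237, limma) and Klf4, a monocyte transcription factor gene, by 0.51 (adjusted p = 0.0173, limma). Of these 3 genes, Ifngr2 and Klf4 were called without RvD2 library 1 and lost without any other (adjusted p = 0.0565 to 0.167 for Ifngr2 and 0.0581 to 0.0842 for Klf4, limma), and Cd14 was lost without RvD2 library 2 (0.0684), RvD2 library 3 (0.0988), untreated library 1 (0.0515) or untreated library 2 (0.0807). All 3 were also lost without the mean-variance trend (adjusted p = 0.0675 to 0.141, limma), and Ifngr2 (0.104) and Cd14 (0.0886) with no filter on low genes. IRF1 target genes (0 of 14 called, median 0.25), partners of IRF4 and IRF8 (0 of 6, median -0.06) and alternative activation genes linked to IRF4 (0 of 5, median 0.17) had no call in this fit, and none (0) of the 10 interferon genes passed the filter.

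Genes with the most similar profile over the 5 muscle columns were found for each member by the root mean square (RMS) difference of log2 levels after each gene's mean was subtracted, among 12629 genes. The profile of Irf7 was nearest to those of Bco2 (RMS 0.19), Ighm (0.23) and GM8989 (0.26), and that of Irf1 to AC128663.2 (0.10), Oas1b (0.16) and H2-K2 (0.18). Ighm is an immunoglobulin heavy chain gene outside the B cell list above. Its log2 levels at day 4 and day 2 were 11.10 and 7.63 in Ly6Clow cells and 11.79 and 9.87 in Ly6Chigh cells. Which cells its reads came from was not tested. Irf4 was nearest to the MHC class II gene H2-DMb2 (0.15), Arl5c (0.23) and BC094916 (0.24), and Irf8 to Acss1 (0.09), Iqsec2 (0.17) and 4930506M07Rik (0.18). The flatter profiles had closer neighbours: Irf3 to Phyh, Acvr1b and Gm1821 (0.02 to 0.03), Irf2 to Cdc40, H2afx and Tm6sf1 (0.03 to 0.05), Irf5 to Srek1, Sys1 and Gm8822 (0.03 to 0.05) and Irf9 to Mapkapk3, Epm2aip1 and Prr3 (0.07 to 0.09). Within the family, Irf2 and Irf9 were each other's nearest member (0.16), while Irf4 and Irf8 had no member nearer than 1.24 and 1.28. With 5 columns these distances describe the profiles and carry no test.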

How the data were processed

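Gene expression was measured by sequencing poly-A RNA. The protocols in the labels name a TruSeq library kit and a HiSeq sequencer. TopHat2 2.0.7, DESeq and mouse build mm10 are listed, per the submitters' processing notes; their parameters and the gene annotation were not given in the sources used here. Both deposited tables hold log2 values of normalised counts, and anything below 1 count stands at 0 in them; this was read from the values. The muscle column of each group was read as a mean of log2 values over its samples, and its depth is unknown. Muscle counts and their sums are these log2 values taken off the log scale. Columns of samples from outside the series: none (0). Values of some genes of the lists are not reported here.

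The members and the gene lists were chosen with earlier results of these data known. All 8 members were named in every comparison; from each list at most 4 called genes with the largest ratios, or in BMDM the smallest adjusted p, were named, and the 3 genes of nearest profile for each member. Muscle columns were compared as log2(normalised count + 10) without a test; levels lie on this scale only in ratios. A muscle gene entered a comparison where the higher column had 50 or more normalised counts. BMDM libraries were compared with limma 3.58.1 (R 4.3.3) with a mean-variance trend, two-sided, over genes whose normalised counts averaged 10 or more, with Benjamini-Hochberg adjustment at 0.05; the code was tested on simulated data. BMDM read totals were estimated from the steps between low values, of which 34.3 to 43.7% lay within 0.02 of whole reads, so the counts were not recovered and no count model was run; reads are not independent molecules. Python 3.11.15, numpy 2.4.6, pandas 2.3.3 and matplotlib 3.10.9 were used. Exon lengths came from GENCODE M21, which holds 36308 (95.3%) of the identifiers, and promoter sequences from RefSeq (GRCm38.p6), which matched 8 of 8 members. Among muscle values 2 cells held no number, 0 of them of a member. Alternatives were other filters, offsets, level and fold limits and scalings, a fit without the trend, a fit with the replicate number as a block, and leaving out each BMDM library.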

Additional observations from a re-analysis of the deposited data

How the results depend on the processing

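In BMDM the number of all genes called, 283, was 137 with no filter, 49 without the mean-variance trend and 79 to 290 when 1 library was left out; the number of IRF genes called, 1, was 0, 0 and 0 to 1 under the same alternatives. With a replicate block 1066 genes and 2 IRF genes were called, Irf2 (adjusted p = 0.00114, limma) and Irf5 (adjusted p = 0.0392, limma). Replicate numbers are shared by label alone: deviations of same-numbered libraries correlated at 0.29, 0.02 and 0.05, and not every library correlated best with its own number. Other filters, offsets and scalings kept the IRF count. Leaving out 1 library gave Irf9 differences of -0.0277 (without untreated replicate 1, the 1 reversal) to 0.202 (without untreated replicate 3); the cause was not tested. Of the 4 pathway genes called, Ticam2 was called under every alternative run, while Ifngr2, Cd14 and Klf4 each lost the call under some. With the replicate block the calls were 8 of 22 ISGF3 target genes, 4 of 10 receptor and JAK-STAT genes, 3 of 23 sensors and adaptors, 3 of 14 IRF1 target genes, 3 of 5 alternative activation genes and 3 of 10 genes linked to IRF8. Over all genes this block called 1066 of 15239. Without untreated replicate 3, 3 ISGF3 target genes were called. In muscle no paired analysis was possible because each group has a single column. The 2 IRF genes called between subsets at day 2 were 1 at an offset of 50, 1 at a level limit of 200, 4 at a fold limit of 1.5 and 1 at a fold limit of 3. The 1 called at day 4 was 2 at 1.5 and 0 at 3. Between neutrophils and macrophages the 2 called (Irf3 higher, Irf8 lower) were 1 at an offset of 50, 4 at a fold limit of 1.5 and 1 at 3; at a level limit of 10 they were 3, with Irf4 lower, and at equal totals 2, with 0 higher and Irf4 and Irf8 lower. Between days 4 IRF genes were called in each subset, within 1.5 times of that count under all alternatives run. Depth limits Irf4 in BMDM, at under 14 normalised counts, and group means hide the spread of every muscle value.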
